A study of Mus musculus with 2 samples.

Results

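The array carried 4460 probes for long intergenic RNAs, long transcripts without a known protein that lie between protein-coding genes. Of these, 2042 (45.8%) were well above background on both arrays of the study and are described here. They were chosen by the scanner software's flag for signal well above background, so that every member had to be bright on both arrays and nothing is read from that. Each probe is a 60-base sequence written for 1 strand of an annotated locus, with 2231 probes on the forward strand and 2229 on the reverse strand of 3240 loci. The array design gives each locus as an interval on mouse build mm9. That interval is the annotated transcript and not the place of the probe within it. The members came from 1643 of these loci. A value could be computed for 2041 of them. The remaining member, on the reverse strand of chr11:79552346-79553082, had a spot of outlying pixels on the control array (signals 691 and 15.1) and was left out of all counts.

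Both groups were the same mouse glioblastoma stem cell line, grown as neurospheres in serum-free medium with the growth factors EGF and bFGF. The line came from a brain tumour that arose in a mouse after mobilisation of the Sleeping Beauty (SB) transposon. The control cells had been stably transduced with a lentivirus carrying a non-target short hairpin RNA, and the Stat5b-knockdown cells with a lentivirus carrying a hairpin against Stat5b. Total RNA of each was labelled with the dye Cy3 and hybridised to 1 single-colour array, so there were no replicates, no test was possible and every value below describes these 2 arrays alone. Effects of the knockdown cannot be told apart from differences between 2 cultures, between 2 transductions of 1 line or between 2 arrays.

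Long intergenic RNAs are transcribed by the polymerase that makes messenger RNA, and many are capped, spliced and carry a poly(A) tail, but they are not known to encode proteins. They act in the nucleus as scaffolds and guides of chromatin proteins, or influence neighbouring genes by being transcribed, and most annotated loci have no assigned role. Stat5b is a transcription factor that cytokine and growth factor receptors activate through JAK kinases, and the study asked how lowering it changed gene expression. The brighter Stat5b probe gave signals of 1991 in control cells and 498 in knockdown cells. The log2 difference, taken as knockdown minus control throughout, was -2.0. Among markers of the labelled cell type, Nes, Vim, Cd44, Id1 and Sox9 were well above background on both arrays, whereas Sox2, Olig2 and Fabp7 were not. Of 5 markers of microglia and immune cells, Ptprc, Csf1r and Cd68 were above background on both arrays and Aif1 and Cx3cr1 on neither.

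The sequences below are those on which the account turns, 5′ to 3′ and in the sense of the annotated transcript. The first 5 are the probes that the array design names after a known long noncoding RNA and that were measured on both arrays.
NEAT1, reverse strand of chr19:5842306-5845476: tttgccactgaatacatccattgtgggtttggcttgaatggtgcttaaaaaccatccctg
TUG1, reverse strand of chr11:3539796-3547536: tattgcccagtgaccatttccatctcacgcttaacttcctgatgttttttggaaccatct
H19, reverse strand of chr7:149761435-149764019: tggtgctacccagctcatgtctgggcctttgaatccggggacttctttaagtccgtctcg
KCNQ1ot1, forward strand of chr7:150399015-150482452: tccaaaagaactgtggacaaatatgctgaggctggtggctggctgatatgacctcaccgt
NRON, forward strand of chr2:33661335-33669111: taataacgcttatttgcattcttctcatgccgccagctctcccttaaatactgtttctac

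The next probes belong to loci where all measured probes of a strand differed by 2-fold or more in the same direction, and they share no stretch with one another.
Lower, forward strand of chr3:146645022-146646977: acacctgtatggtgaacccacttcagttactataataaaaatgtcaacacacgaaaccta
Lower, forward strand of chr3:146629425-146649125: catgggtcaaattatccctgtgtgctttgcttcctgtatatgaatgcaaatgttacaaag
Lower, forward strand of chr1:141070245-141076841, first probe: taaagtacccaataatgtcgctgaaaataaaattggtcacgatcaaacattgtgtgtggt
Lower, forward strand of chr1:141070245-141076841, second probe: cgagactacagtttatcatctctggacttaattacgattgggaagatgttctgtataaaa
Higher, forward strand of chr6:52046805-52072744, first probe: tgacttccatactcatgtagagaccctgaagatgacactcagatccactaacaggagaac
Higher, forward strand of chr6:52046805-52072744, second probe: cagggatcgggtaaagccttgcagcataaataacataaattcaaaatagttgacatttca

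A pair of higher probes on chromosome 16 is shown because they are not independent. Capitals mark the longest unbroken stretch they share, 48 bases.
Higher, reverse strand of chr16:3111550-3130500: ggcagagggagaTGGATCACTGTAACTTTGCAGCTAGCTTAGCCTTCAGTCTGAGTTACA
Higher, forward strand of chr16:3337275-3355950: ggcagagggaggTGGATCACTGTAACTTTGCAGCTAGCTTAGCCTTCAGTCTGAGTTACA

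Between the arrays the members differed little, and about as many were past 2-fold upwards as downwards. In Stat5b-knockdown cells 38 of the 2041 members with a value (1.86%) were higher by 2-fold or more and 40 (1.96%) were lower by as much. Among all 32047 probes that passed the same brightness rule, the shares were 3.15% higher and 2.62% lower. The median log2 difference of the members was -0.03, against -0.01 over all probes, and 936 members were above 0 and 1105 below. Their SD was 0.47 and their interquartile range 0.45, against 0.51 and 0.52 over the other 30006 probes. Across the members, log2 levels correlated at r = 0.981 between the arrays, which is a description across probes that share both hybridisations. In array rows up to 320 (explained below) the share of members past 2-fold was the smaller in each bin of signal. In 4 bins of nearly equal member number by mean level, from dim to bright, 3.56%, 4.28%, 2.61% and 2.13% of members differed by 2-fold or more, against 5.80%, 8.39%, 7.59% and 4.01% of other probes in the same bins.

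**Figure D1:**
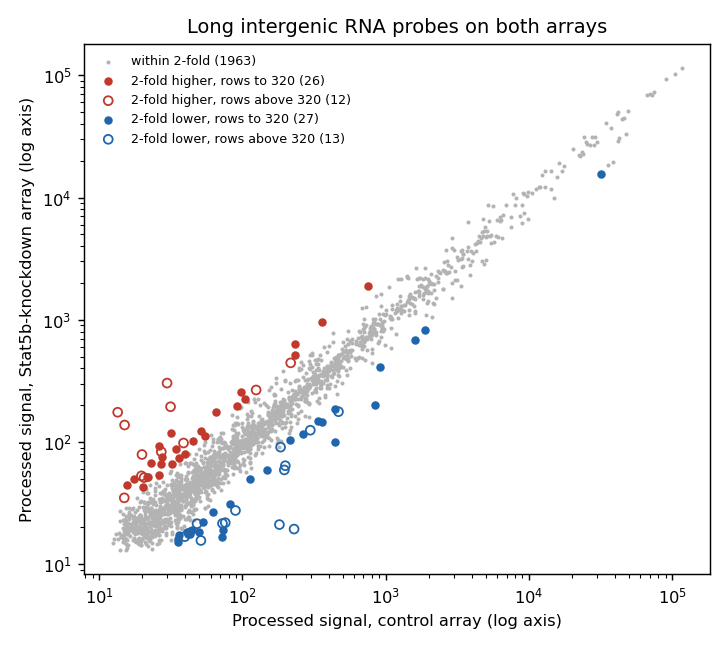
Processed signal of each of the 2041 long intergenic RNA probes on the control array (horizontal, log axis) and the Stat5b-knockdown array (vertical, log axis), with 1 array per group. Red and blue points are the 38 higher and the 40 lower probes past 2-fold, open circles lie in array rows above 320, and most coloured points lie at the dim end.

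The members' spread depended on where on the array they were printed. The array had 384 rows. Over the 1685 members in rows up to 320 the SD of the log2 difference was 0.42 and the range -2.15 to 1.87, whereas over the 356 members in rows above 320 the SD was 0.65 and the range -3.57 to 3.70. In the 5 blocks of 64 rows up to row 320 the SD lay between 0.398 and 0.434. The interquartile ranges were close to each other, at 0.446 up to row 320 and 0.457 above, so the excess lay in few probes. In rows up to 320, 26 members were higher and 27 lower by 2-fold or more, or 1.54% and 1.60%, where the shares over all probes were 3.02% and 2.4%. A difference of 4-fold or more was seen in 3 of those 1685 members (0.178%, all probes 0.363%) and in 6 of the 356 members in rows above 320 (1.69%, all probes there 1.06%). The other probes widened in the same rows, from an SD of 0.499 to 0.583. The largest differences and the comparisons within loci are therefore given for rows up to 320. The largest differences above that row are described separately. The brightest members, the known RNAs and the members with shared sequence or at gene starts come from all rows.

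**Figure D2:**
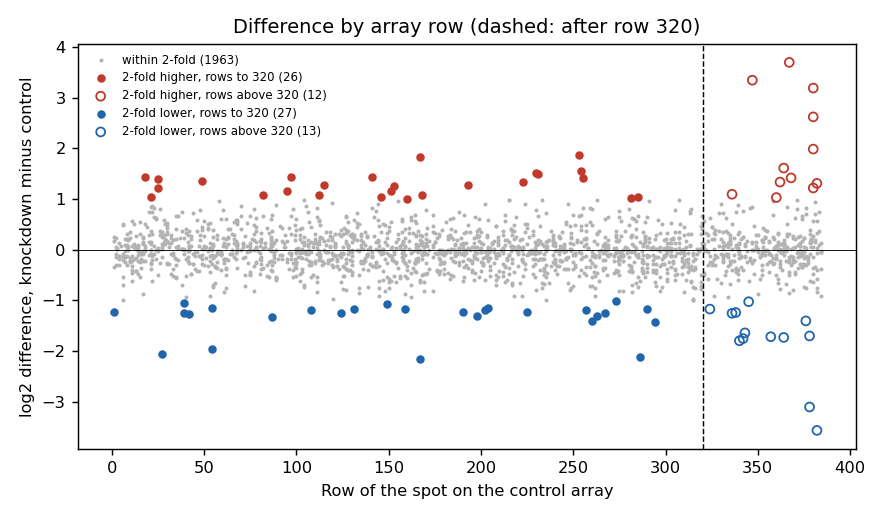
Log2 difference (knockdown minus control) of each of the 2041 members against the row of its spot on the control array, with the dashed line after row 320. Colours and symbols are as in the plot of signals, and the members beyond 3 in size on the log2 scale all lie to the right of the line.

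Among members in rows up to 320 with at least the members' median level, the lowest in Stat5b-knockdown cells were a pair of neighbouring probes on chromosome 3. The probe of the forward strand of chr3:146645022-146646977 had a signal of 446 in control and 100.3 in knockdown cells and differed by -2.15 ± 0.21, which leaves 22.5% of the control value. Here and below the ± of a log2 difference combines the errors that the scanner software assigns to the signals of both arrays. It covers no spread between cultures, and for bright probes printed once it was about 0.20 in each case. The probe of the longer overlapping locus chr3:146629425-146649125, on the same strand, read 840 and 201, a difference of -2.07 ± 0.21. The probe for the reverse strand of that locus read 6.69 and 2.70 and was at background on both arrays. With another background correction (normexp, which models each spot as signal plus background and adds a constant), both forward probes were still lower, by -1.62 and -1.82.

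Both measured probes of the forward strand of chr1:141070245-141076841 were lower too. The first read 264 and 115 (-1.20) and the second 913 and 412 (-1.15), while the reverse probe was at background. A like pattern of neighbouring probes on the same strand was seen at 2 more places. On chromosome 17 the forward probes of the overlapping loci chr17:36131460-36136694 and chr17:36136010-36136696 read 358 and 145 (-1.31) and 113 and 49.5 (-1.19). On chromosome 13 the reverse probes of chr13:94200051-94200598 and the enclosing chr13:94182877-94203935 read 445 and 184 (-1.27) and 43.2 and 18.8 (-1.20). Those 4 groups of overlapping loci, with 2 probes each, were the ones in rows up to 320 in which more than 1 probe of a strand was measured and every one was lower by 2-fold or more. Grouping by overlap was added after the values were seen, and by identical locus only the chromosome 1 pair qualified among lower probes. With normexp the first chromosome 1 probe was at -0.86, the weaker chromosome 17 probe at -0.57 and the chromosome 13 probes at -0.99 and -0.44, under 2-fold in each case.

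Other members among the lowest stood alone on their strand. The reverse probe of chr12:103151385-103157735 read 1610 and 687 (-1.23), and a second reverse probe of that locus was at background on both arrays. A forward probe of the same interval, also a member, read 24.7 and 17.1 (-0.53). The reverse probe of chr13:98038568-98068079 read 1872 and 826 (-1.18), and the forward probe there was at background. Both of these were bright on the control array, and the next were dimmer. The forward probe of chr6:86477309-86537554 read 148 and 59.0 (-1.33) and the reverse probe of chr14:56348028-56348470 read 336 and 149 (-1.18). With normexp the chromosome 12 and chromosome 13 probes stayed past 2-fold, at -1.18 and -1.06, and the chromosome 6 and chromosome 14 probes did not, at -0.83 and -0.87. The brightest member past 2-fold in either direction, singled out after its values were seen, was the forward probe of chr11:35805295-35817263. It read 31574 and 15727 (-1.01 ± 0.20; -0.99 with normexp and -0.97 with quantile scaling), and a second forward probe inside that interval, at chr11:35810031-35810205, read 5691 and 4297 (-0.41).

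Among higher members, the first and the third largest differences, taken in rows up to 320 and at or above the members' median level, came from a shared sequence. The probes of the reverse strand of chr16:3111550-3130500 and of the forward strand of chr16:3337275-3355950 hold the same stretch of 48 bases in the same orientation, as printed above. The first read 231 and 628 (1.44 ± 0.20) and the second 357 and 958 (1.42 ± 0.20). They can hybridise to the same RNA and are counted as 2 probes but not as 2 observations. A forward probe of chr18:3003075-3016150 read 97.7 and 256 (1.39), and the reverse probe of that locus read 129 and 227 (0.81). The forward probe of chr16:77670599-77691642 read 65.4 and 176 (1.43), and the forward probe of an overlapping locus was not well above background on both arrays.

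On chromosome 14 higher values came from both strands. The reverse probe of chr14:65430484-65432413 read 750 and 1893 (1.34 ± 0.20), the largest signal on the knockdown array among the higher members outside rows above 320. The forward probe of the overlapping chr14:65431652-65437902 read 232 and 517 (1.15 ± 0.21). The reverse probe of that second locus read 77.9 and 92.0 (0.24), so the members of this interval did not all differ alike. On chromosome 6 both measured forward probes of chr6:52046805-52072744 were higher, reading 26.1 and 92.9 (1.83 ± 0.25) and 55.1 and 111 (1.02 ± 0.22). The measured reverse probe of the same interval read 36.5 and 37.0 (0.02 ± 0.26). A further pair of forward probes, of the overlapping loci chr19:44651106-44657612 and chr19:44653017-44654777, read 39.5 and 79.3 (1.003) and 51.2 and 122 (1.25), and the reverse probe there read 16.5 and 16.9 (0.03).

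The remaining higher members of this selection were the forward probe of chr2:52241435-52245307, at 105 and 223 (1.08), and a reverse probe of chr15:102026122-102033725, at 92.0 and 195 (1.08). The other reverse probes of the chromosome 15 locus differed by 0.41 and 0.10, and its forward probe by 0.46. Just under 2-fold were reverse probes of chr17:29183003-29217681 and of chr13:28551902-28975446, with differences of 0.99 and 0.98. With normexp, the chromosome 16 pair (1.23 and 1.36) and the chromosome 14 reverse probe (1.24) stayed past 2-fold. The chromosome 14 forward probe was then at 0.98, the chromosome 6 probes at 0.87 and 0.52, the chromosome 18 probe at 0.93 and the chromosome 19 pair at 0.43 and 0.76. The probes of chr16:77670599-77691642, chr2:52241435-52245307 and chr15:102026122-102033725 were at 0.90, 0.80 and 0.77. The weaker chromosome 19 probe was also just under 2-fold with median (0.994) and quantile (0.992) scaling, and the weaker chromosome 6 probe with quantile scaling (0.992). Over all rows, 17 of the 78 members past 2-fold stayed past it with normexp, 6 higher and 11 lower, and all 78 kept their sign. The constant that normexp adds narrows the differences of dim probes most and by itself reverses no sign. These counts are therefore no separate check of which differences hold.

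The probes named after known long noncoding RNAs differed by less than 2-fold. NEAT1, the RNA around which nuclear paraspeckles assemble, had signals of 7718 in control and 10794 in knockdown cells (0.48 ± 0.20). The probes that the array annotates with the gene Neat1 itself differed by 0.02 ± 0.21 and 0.09 ± 0.20. TUG1, first described as an RNA needed in retinal development, read 991 and 625 (-0.67 ± 0.20), while the Tug1 gene probe read 344 and 366 (0.09 ± 0.20). H19, an imprinted RNA expressed from the maternal allele, read 919 and 1023 (0.15 ± 0.20), with its gene probe at 0.27. KCNQ1ot1, the imprinted antisense RNA of the Kcnq1 cluster, read 937 and 842 (-0.16 ± 0.20), within the range of its 4 measured gene probes, which ran from -0.37 to 0.03. NRON, a repressor of the transcription factor NFAT, was dim at 28.1 and 26.8 (-0.07 ± 0.31). For NEAT1 and TUG1 the probes of a gene thus lay apart by more than the software's error of either probe taken alone. That error is not the error of a gap between 2 probes. For other probes with the same gene symbol, in rows up to 320, the SD within a gene was 0.293, so probes of a gene commonly differ. Which transcript form each probe reads is not given in the sources used here.

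**Figure D3:**
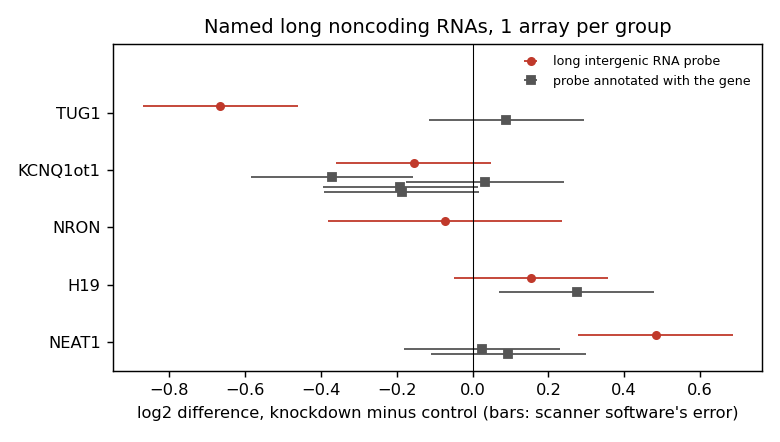
Log2 difference (knockdown minus control, horizontal) of the 5 long intergenic RNA probes named after a known RNA (red circles) and of the probes annotated with the same gene (grey squares), where measured on both arrays, with 1 array per group. Bars are the scanner software's error. The NEAT1 and TUG1 circles, at 0.48 and -0.67, lie apart from their squares, though for NEAT1 the bar of the circle overlaps that of a square.

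Neighbouring members give the setting of both. In the TUG1 interval a forward probe of the overlapping chr11:3538125-3554450 read 342 and 210 (-0.71) and a reverse probe of it read 51.0 and 56.8 (0.15). The other members of the interval around NEAT1, chr19:5771425-5848475 and the loci inside it, differed by between -0.19 and 0.33. The probes named HOTAIR, XIST, TSIX, PINC and lincP21 were not well above background on either array and have no difference. The lincP21 probe read 8.53 and 5.91, although a member of the enclosing locus on the same strand, chr17:29183003-29217681, read 84.1 and 167 (0.99 ± 0.21). Another member on that strand, chr17:29192453-29216073, read 41.7 and 57.2 (0.46 ± 0.24). LincRNA-p21 is known as a p53-induced transcript next to Cdkn1a, the gene of the cell-cycle inhibitor p21, whose probes measured on both arrays differed by -0.40 (in rows above 320) and -0.72.

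The members with the largest signals were nearly equal on the arrays. The 8 brightest lay between -0.08 and 0.06. They were led by the reverse probe of chr11:22681800-22707775 (116940 and 114777) and the forward probe of chr14:78924115-78938125 (104601 and 103574). Spots repeated within the arrays gave the measuring error for 5 members, each printed 10 times. The probe of the forward strand of chr17:39983902-39985688 read 34807 ± 1086 in control and 40983 ± 1212 in knockdown cells (SD over 10 spots), a difference of 0.25 with an SD of 0.031 over spots, and all 10 spots were higher. A pair of forward probes of chr6:116123643-116124550 were lower, at 42410 ± 2277 against 30633 ± 1741 (-0.47, SD 0.053) and 47331 ± 2889 against 32842 ± 1518 (-0.53, SD 0.041), with none of the 20 spots higher. A further forward probe of that locus, printed once, differed by -0.52. These differences are larger than the spread of spots on an array, which does not contain the spread between cultures. The forward probe of the enclosing chr6:116092274-116144199, in rows above 320, differed by 0.05. The last of the repeated members, reverse on chr2:167085700-167117795 and forward on chr17:48068261-48087905, differed by 0.01 and 0.04.

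Probes of the same locus and strand gave related but not equal differences. In rows up to 320, 92 locus strands had more than 1 measured probe, 194 probes in all. The SD of their log2 differences within a locus strand was 0.317, against 0.499 over the same probes without regard to locus. All probes of a locus strand had the same sign in 64 of the 92 (69.6%). Across the 82 of them with exactly 2 probes the differences correlated at r = 0.586, a description over probes that share both arrays, and the SD of the gap between them was 0.477. For other probes annotated with the same gene symbol the SD within a gene was 0.293, over 5754 genes. When overlapping loci were joined, the SD within 256 groups was 0.330. Probes of the same strand that overlapped by 25 or more bases were closer, with an SD of 0.114 over 11 pairs and a largest gap of 0.36.

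**Figure D4:**
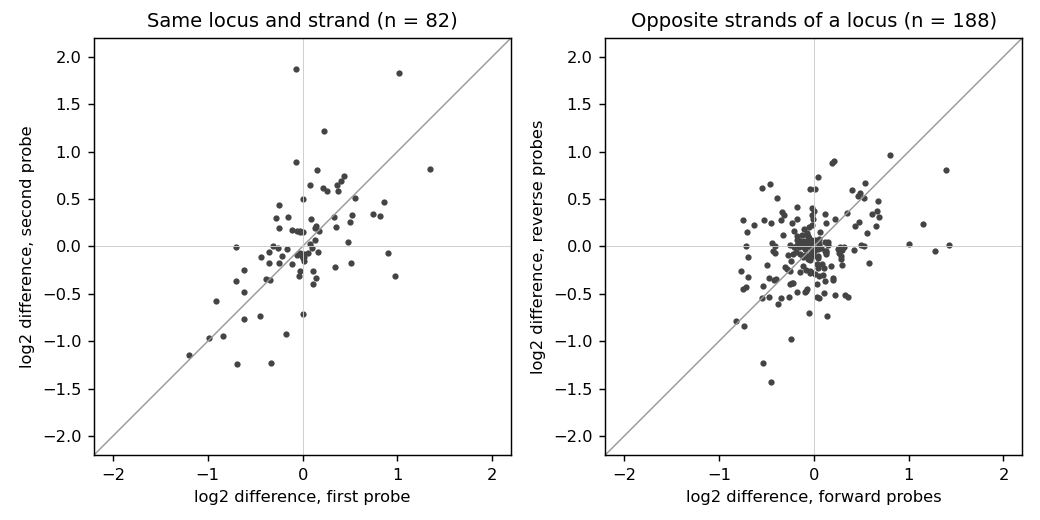
Log2 differences (knockdown minus control) of members in rows up to 320: 82 locus strands with 2 measured probes, first against second probe (left), and 188 loci measured on both strands, mean of forward against mean of reverse probes (right). The grey diagonal marks equal differences, and the gap between the values has an SD of 0.477 on the left and 0.428 on the right. The SDs are not comparable, because the left is between single probes and the right between means over probes, in different sets of loci.

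The strands of a locus were read separately by 832 loci with probes for both. Both strands were measured at 258 of these loci, 1 strand at 362 and neither at 212. At the 188 loci measured on both strands in rows up to 320, the differences correlated at r = 0.337 and the SD of the forward minus the reverse difference was 0.428. None of the 188 had both strands past 2-fold in the same direction. In those rows only 1.54% of members were higher and 1.60% lower by 2-fold or more, so nothing is read from that. At 5 of the 188 the strands differed from each other by 2-fold or more. The widest of these was the chromosome 6 locus above, at 1.41. At 3 of the 5 the signs were opposite and each strand's difference exceeded the software's error. The 5 were picked for a wide gap, which favours opposite signs, so nothing is read from that. On chr3:40439525-40509975 the forward probe read 214 and 146 (-0.55) and the reverse probe 32.1 and 49.1 (0.61). On chr2:153163620-153170845 the forward probe read 168 and 122 (-0.46) and the reverse probe 248 and 391 (0.65). On chr17:71242333-71273533 the forward probe read 3873 and 2304 (-0.75) and the reverse probe 694 and 842 (0.28).

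Some strand pairs cover the same bases, which shows what the orientation of a probe means here. In 194 pairs the probes of opposite strands were reverse complements over at least 25 bases, and both were members in 46 pairs, 1 in 77 and neither in 71. In the 3 pairs that follow, capitals mark the stretch that is the reverse complement of the partner.
Forward strand of chr8:40238025-40264250: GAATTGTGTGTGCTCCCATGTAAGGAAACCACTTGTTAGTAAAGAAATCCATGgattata
Reverse strand of chr8:40238025-40264250: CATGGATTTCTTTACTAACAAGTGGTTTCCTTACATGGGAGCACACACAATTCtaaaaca
Reverse strand of chr13:73472571-73483846: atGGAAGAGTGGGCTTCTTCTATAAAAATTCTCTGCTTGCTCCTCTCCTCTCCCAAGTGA
Forward strand of chr13:73472571-73483846: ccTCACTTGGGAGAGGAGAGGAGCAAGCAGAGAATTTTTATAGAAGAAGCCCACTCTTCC
Forward strand of chr15:102947390-102971082: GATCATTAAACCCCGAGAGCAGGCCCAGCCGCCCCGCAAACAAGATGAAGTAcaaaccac
Reverse strand of chr15:102947390-102971082: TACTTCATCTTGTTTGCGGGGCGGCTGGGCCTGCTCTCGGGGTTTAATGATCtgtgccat
The chromosome 8 pair, with 53 shared bases, read 2897 and 4672 on the forward strand (0.69) and 18.3 and 22.7 on the reverse strand (0.31). The chromosome 13 pair, with 58 shared bases, read 23634 and 23739 on the reverse strand (0.00) and 24.4 and 19.02 on the forward strand (-0.36). The chromosome 15 pair, with 52 shared bases, read 261 and 254 on the forward strand (-0.04) and 257 and 257 on the reverse strand (0.00). How well each orientation of a sequence hybridises is not known, so the signals are given side by side and no strand is called the more abundant.

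A few members carry sequence of an annotated gene, and their signal can come from that gene's RNA as well as from the intergenic locus. In the same orientation, 20 probes of the kind share at least 25 bases with another probe of the array, and 16 of them are members. In the opposite orientation the numbers are 46 and 29. Capitals mark the shared stretch in 3 examples.
With the Rps29 gene probe, reverse strand of chr7:108209996-108216032: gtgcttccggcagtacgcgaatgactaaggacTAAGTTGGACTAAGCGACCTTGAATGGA
With the Cox5b gene probe, reverse strand of chr4:33364774-33364898: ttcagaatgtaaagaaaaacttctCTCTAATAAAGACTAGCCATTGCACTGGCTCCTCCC
With the Tusc3 gene probe, forward strand of chr8:40100925-40196350: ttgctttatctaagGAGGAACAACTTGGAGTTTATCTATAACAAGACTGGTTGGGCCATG
The Rps29 example, named for a protein of the small ribosomal subunit, was the third brightest member (90303 and 94168, 0.06), and the Rps29 probe differed by 0.12. The Cox5b example, which shares its bases with the gene of a cytochrome c oxidase subunit, read 41724 and 50221 (0.27), with the gene probe at 0.22. The Tusc3 example read 1285 and 2148 (0.74), with the gene probe at 0.71. In all 3 examples the probe and the gene probe were close. Tusc3 encodes a subunit of the complex that attaches sugars to nascent proteins. A pair of members on chromosome 5, reverse on chr5:22887983-22939658 and chr5:22890322-22939119, share bases with the noncoding gene 5031425E22Rik. They read 927 and 1611 (0.80) and 1051 and 1838 (0.80), and the gene probe read 837 and 1685 (1.01).

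Over the 16 same-strand members, the median gap between the probe's log2 difference and that of its partner was 0.20 and the signs agreed in 13. The widest same-strand gap, 1.29, was at the reverse strand of chr18:5162836-5165729, in rows above 320. That member read 20.2 and 39.0 (0.95), and the Gm26682 probe differed by -0.34. Over 28 members with a measured partner on the opposite strand, the median gap was 0.13 and the signs agreed in 19. Some partners in opposite orientation were close: a member opposite Cbx1 differed by 0.30 where Cbx1 differed by 0.26, and a second Tusc3 member, on the reverse strand of chr8:40100925-40196350, differed by 0.67 where the Tusc3 probe differed by 0.64. Others were not, and a member opposite Cwc22 differed by 0.10 where the Cwc22 probe differed by 1.40. None of these 44 members was past 2-fold, where 3.82% of all members were, and nothing is read from so small a number.

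**Figure D5:**
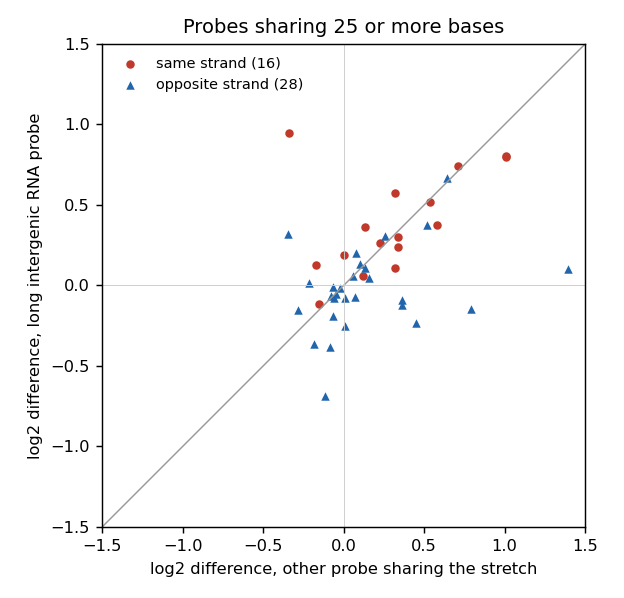
Log2 difference (knockdown minus control) of members that share 25 or more bases with another probe of the array (vertical) against that of the other probe (horizontal), with 16 members in the same orientation (circles) and 28 in the opposite orientation (triangles). The grey diagonal marks equal differences.

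Another set of members lies at gene starts. The probes were matched, over at least 25 bases, to RefSeq promoter windows of assembly GRCm38.p6, which run from 250 bases before to 50 after a gene's start. A match to 1 gene on the annotated chromosome was found in the gene's orientation for 39 probes, 19 of them members, and in the opposite orientation for 50 probes, 31 of them members. As a check of orientation, 201 gene probes lay in their own gene's window in the gene's orientation and 10 in the opposite one. Only 1 of these members was past 2-fold, where 3.82% of all members were, and nothing is read from so small a number. Its 60 bases are all shown in capitals because the whole probe lies in the window. It runs from 83 to 24 bases before the start of Lockd.
Forward strand of chr6:134879009-134880130: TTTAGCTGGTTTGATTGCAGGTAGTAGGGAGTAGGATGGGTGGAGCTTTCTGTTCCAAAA
Lockd is a noncoding RNA made next to Cdkn1b, the gene of the cell-cycle inhibitor p27. The probe read 35.6 and 15.2 (-1.23 ± 0.37; -0.34 with normexp). The other probe of that locus read 612 and 485 (-0.34), and the Lockd gene probe read 2784 and 2657 (-0.07). The measured Cdkn1b probes differed by 0.46 and 0.44.

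The 31 members matched to a promoter in the opposite orientation were all under 2-fold, too few to set apart from the 3.82% of all members past it. Where the gene was measured, the signs of member and gene agreed in 5 of 10 matches in the gene's orientation. They agreed in 12 of 18 in the opposite orientation. The matches named here are examples, and others lay far from their gene. A member opposite Arhgap32 differed by 0.17 where the gene's 2 probes averaged -0.82. A member opposite AI839979 differed by 0.02 and the gene by 0.61. The member upstream of Gm36595 differed by -0.70. A member opposite the start of Snhg17, the host gene of a small nucleolar RNA, read 64.6 and 48.2 (-0.42), and a member opposite the start of Snhg3 read 1836 and 1854 (0.01), with the Snhg3 gene probe at -0.06. A pair of members upstream of 4732419C18Rik and opposite to it read 59.1 and 86.4 (0.55) and 214 and 306 (0.51), and the gene's measured probe differed by 0.56. The member upstream of Gm19705 in its own orientation read 24.4 and 42.1 (0.78), with the gene probe at 0.88. The second brightest of all members, the forward probe of chr14:78924115-78938125, lies across the start of Akap11 in the opposite orientation. Akap11 differed by -0.05, the mean of 2 probes at -0.16 and 0.05. A reverse probe of that locus, a member in rows above 320, read 298 and 125 (-1.26).

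The members in rows above 320 held the extremes of the whole set. The 5 largest higher differences there were 3.70 (13.5 and 175, reverse on chr5:33788271-33788845), 3.35 (29.8 and 303, reverse on chr12:109994730-109995062), 3.19 (15.1 and 138, forward on chr15:32167516-32174427), 2.62 (31.5 and 194, forward on chr4:94719930-94825776) and 1.99 (19.9 and 78.9, reverse on chr5:149801336-149806799). The 5 largest lower differences were -3.57 (229 and 19.3, reverse on chr2:71576218-71603818), -3.11 (181 and 21.1, forward on chr10:87541696-87547421), -1.80 (chr1:152001112-152012796), -1.76 (chr18:6144775-6202232) and -1.73 (chr2:108382077-108441137). In 8 of these 10 probes the signal on the dimmer array was below 30. With normexp the same probes differed by 1.35, 1.72, 0.996, 1.302 and 0.46, and by -1.57, -1.44, -0.68, -0.68 and -1.13. The part of the array position in these values was not tested.

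Detection on a single array was seen for 351 further probes, 240 in control (5.38% of 4458 with a value) and 111 in knockdown cells (2.49%). Such shares were not computed over all probes of the array. Neither these counts nor their uneven split is therefore read as a trait of this probe kind. For these a bound was computed. The level on the bright array was set over the lowest level that counted as detected on the dim array, or over the probe's own level there where that was higher. At least 2-fold were 37 of the 240 and 28 of the 111. The largest bounds again lay in rows above 320. For a forward probe of chr18:5988500-6022000 (339 on the control array, not well above background on the other) the control array was at least 26.2-fold higher. For a reverse probe of chr7:6108350-6119600 (158 on the knockdown array) the knockdown array was at least 13.1-fold higher. In rows up to 320 the largest bounds were at least 8.35-fold for the forward strand of chr5:121765763-121768660, higher in control, and at least 3.47-fold for the reverse strand of chr10:39666719-39679959, higher in knockdown.

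Base composition and locus length went with whether a probe was measured, which is the brightness that chose the members, and are given as a description. The median GC content was 45% for members and for the 2417 probes not measured on both arrays, and the means were 46.9% and 43.7%. The share measured on both arrays went from 23.8% of probes under 35% GC to 83.0% of probes at 65% GC or more. By annotated locus length it went from 33.1% below 500 bases to 50% above 30000 bases. The 78 members past 2-fold had a median of 45% and a mean of 42.1%. Across the other probes of the array 57.6% were measured on both arrays, against 45.8% here. Just inside the rule, the dimmest member by its lower signal, a reverse probe of chr14:55671783-55680316, read 12.4 and 14.8. Just outside it, a reverse probe of chr14:65720392-65769859 read 22.5 and 16.5.

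Long noncoding RNA genes that the array carries under their own names were also counted, from a list of 66. Of these, 56 had a probe and 41 were measured on both arrays. The median difference of the 41 was -0.11, against 0.01 over the 16345 genes measured, with 25 below 0 and 16 above. At least 2-fold higher were Mirg, a microRNA host RNA of the imprinted Dlk1-Dio3 region (30.4 and 153, 2.33 ± 0.24), and Snhg11 (21.6 and 83.4, 1.95 ± 0.29). Both were dim in control cells, and each rests on 1 measured probe, of 2 for Mirg and of 3 for Snhg11. None of the 41 was 2-fold lower, and 6.08% of all genes were past 2-fold in either direction. Listed genes without a probe measured on both arrays are outside these counts. Among them, a Miat probe read 97.3 in control and 3.11 in knockdown cells, and a Cdr1os probe 2.85 and 277. No difference or bound is given for either. Genes of the list named Snhg, for host genes of small nucleolar RNAs, were below 0 in 12 of 14, with a median of -0.30. This subset was singled out by name after the values were seen, and the share of all genes below 0 was not computed. Snhg4 (371 and 217, -0.77), Snhg14 (76.6 and 47.3, -0.70), Snhg15 (-0.58) and Snhg5 (-0.55) were lowest and Snhg18 (0.67) and Snhg11 were above 0. The only Snhg4 probe lay in rows above 320, and the means of Snhg15 and Snhg5 include values from those rows. Snhg14 rests on 1 measured probe of 5. Gas5, an RNA that accumulates when growth stops, differed by -0.13. Crnde, a long noncoding RNA raised in many gliomas, read 1367 and 844 at its brightest probe and differed by -0.70. Xist and Meg3 were not well above background, and Malat1 had no probe under that name.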

How the data were processed

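The deposited scanner files give 1 intensity per spot, background-corrected by the authors' scanner software (Agilent Feature Extraction 12.1.0.3, per the file headers), with flags whose values are 0 or 1. The authors' deposited table holds log2 values, which equal log2 of the processed signal minus 8.94 on each array and have column medians of -3.83 and -3.83. Strand and locus come from the probe descriptions of that table, on build mm9 per the file headers. Here, log2 signals (floor 1) were averaged over spots, spots with outlier flags were dropped, and the 75th percentile over non-control probes was subtracted per array. Differences are knockdown minus control, and at least 1 in size was counted as 2-fold. No test was run, each group having 1 array, and the number of arrays limits the precision. Alternatives were normexp (limma 3.58.1, offset 50, on median signals because no mean signal was used here), median and quantile scaling, the authors' table, no filter, brighter probes, rows up to 320 and no outlier flags. Scripts were tested on simulated data. Members and lists were chosen with earlier results of these data known. Members were named by a rule: the 10 largest differences in each direction at or above the median level in rows up to 320, 5 in each direction above row 320, the 8 brightest, loci with all probes past 2-fold, the 6 widest strand differences, and probes at the edge of the rule. Probe positions within loci were not used here, because no mm9 genome was used.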

Additional observations from a re-analysis of the deposited data

How the results depend on the processing

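Over all rows, 38 members were at least 2-fold higher, 40 lower, the SD was 0.47 and the median -0.03. Median scaling, quantile scaling, the authors' table and keeping outlier spots gave 36 to 38 higher and 40 to 42 lower. With normexp, which adds an offset, 6 were higher and 11 lower, with an SD of 0.27, an SD within locus strands of 0.179 (0.345 otherwise), an SD of strand differences of 0.326 (0.529 otherwise) and 1 known long noncoding RNA gene higher instead of 2. With no filter on dim probes 215 were higher and 302 lower, with an SD of 0.735 and a median of 0.068. With brighter probes alone (464 members) 4 were higher and 5 lower, with SDs of 0.375, 0.123 within locus strands and 0.345 between strands. Without rows above 320 the SD was 0.424 and that of strand differences 0.428. By the flag for signal positive and significant, 12.3% of probes were detected on 1 array alone, against 7.87%. The offset of normexp narrows the differences of dim probes and by itself reverses no sign. Of the named members, 35 moved by more than the software's error with normexp, and no called member reversed. None moved so far under another setting, but most of these settings could not move a single probe. The filters and the choice of rows leave each value unchanged. Median scaling and the authors' table shift all probes by nearly the same amount. No paired analysis was possible because each group had 1 array, and no array could be left out. Dim members limit the result: signals near 13 are the lowest called well above background.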
